A study of Caenorhabditis elegans with 2 samples.

Results

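The nhr- genes of the nematode Caenorhabditis elegans encode nuclear hormone receptors, and the occupancy of their promoters by the transcription factor SNAI-1 was read from ChIP-seq region lists. All protein-coding genes whose symbol in the Ensembl annotation of WBcel235 starts with nhr- were taken, which gave 269 of 19973 protein-coding genes. SNAI-1, encoded by K02D7.2, is a zinc-finger protein of the Snail family. ChIP-seq, which sequences DNA recovered with an immunoprecipitated protein, was done with an anti-GFP antibody on strain OP698 (unc-119(tm4063) III; wgIs698), which expresses the protein with a GFP tag. Both samples were pools of whole late embryos of both sexes, taken 5 hours after synchronization by bleaching, and the design has 1 group of 2 biological replicates with no second condition. All embryos therefore carried the same unc-119 allele and the same tagged transgene, and signal from different cell types of the embryo is mixed in each library. The lists hold regions and no reads, so depth is unknown.

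Nuclear hormone receptors are transcription factors with a zinc-finger DNA-binding domain and a domain that can bind small lipophilic ligands such as sterols and fatty acids. Nematodes have a large expansion of this family, much of it derived from an ancestor related to the vertebrate receptor HNF4, beside a small set of receptors with direct counterparts in flies and vertebrates. In C. elegans the studied members act in fat and nutrient metabolism, moulting, development and responses to toxins and pathogens. Little is known of most members.

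Each gene was scored by its strongest candidate region. A candidate region is an entry of the list pooled over both replicates, which holds the 30000 strongest regions whether or not they are significant. Its summit had to lie within a window that reached 1000 bp upstream and 200 bp downstream of any annotated transcript start. The score is the signal the authors deposited for that region, which has no stated scale and is comparable within 1 list. The deposited list of peaks that passed the irreproducible discovery rate (IDR) filter holds 495 regions, and these are the 495 strongest of the pooled list. A region's rank counts from the strongest in its list.

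The sequences at the strongest sites show what lies under the summits. All are from the RefSeq sequence of the ce11 assembly, plus strand, read 5′ to 3′, with the summit after the first 100 bases. Shown first are 3 sites where the summit lies in or beside a transfer RNA (tRNA) gene, which stands in capitals.
nhr-255 (chrX:15741969-15742169): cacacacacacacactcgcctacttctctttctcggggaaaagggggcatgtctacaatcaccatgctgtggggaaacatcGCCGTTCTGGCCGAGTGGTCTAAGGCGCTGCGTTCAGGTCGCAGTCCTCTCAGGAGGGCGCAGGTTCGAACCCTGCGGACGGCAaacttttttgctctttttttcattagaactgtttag
nhr-41 (chrIV:1388098-1388298): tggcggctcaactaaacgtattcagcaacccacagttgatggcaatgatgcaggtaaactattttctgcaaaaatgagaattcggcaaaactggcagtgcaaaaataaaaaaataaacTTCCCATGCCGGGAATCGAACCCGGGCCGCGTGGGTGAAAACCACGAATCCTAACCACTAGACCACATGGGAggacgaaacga
nhr-17 (chrX:12665142-12665342): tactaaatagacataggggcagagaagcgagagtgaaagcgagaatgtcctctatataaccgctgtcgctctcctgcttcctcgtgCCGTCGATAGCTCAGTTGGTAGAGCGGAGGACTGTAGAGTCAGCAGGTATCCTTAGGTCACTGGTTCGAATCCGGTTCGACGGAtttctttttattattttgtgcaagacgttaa
The capitals mark a tRNA-Leu gene upstream of nhr-255, a tRNA-Glu gene on the opposite strand in an intron of nhr-41, and a tRNA-Tyr gene in an intron of nhr-17. Each holds a match to GTTCGANNC, which contains GTTCGA, the core of the B box, an internal promoter element of tRNA genes. At nhr-255 the letters match on both strands. The match begins 44 bp to the right of the summit at nhr-255 and 49 bp at nhr-17, and at nhr-41 it lies on the minus strand, with its leftmost base 30 bp from the summit. In windows of 100 bp to each side of the summit this pattern was counted on either strand. It was present at 4 of 89 best regions of nhr- genes (4.49%), those at nhr-255 and nhr-41 among them. Over all protein-coding genes it was present at 130 of 6733 best regions (1.93%).

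The remaining IDR peaks in or beside nhr- genes, and the strongest region that missed the IDR list, are shown for comparison. Capitals mark a small nucleolar RNA (snoRNA) gene at nhr-102 and a match to CAAGTG, the reverse complement of CACTTG, at nhr-48.
nhr-102 (chrV:15873878-15874078): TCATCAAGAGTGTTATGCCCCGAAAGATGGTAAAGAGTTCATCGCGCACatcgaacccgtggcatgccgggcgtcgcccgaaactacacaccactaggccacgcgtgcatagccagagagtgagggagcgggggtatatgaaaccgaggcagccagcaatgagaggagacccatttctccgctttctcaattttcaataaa
nhr-95 (chrV:19082453-19082568): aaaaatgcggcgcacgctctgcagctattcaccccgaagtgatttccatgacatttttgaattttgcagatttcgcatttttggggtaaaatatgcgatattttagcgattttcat
nhr-142 (chrV:5790964-5791164): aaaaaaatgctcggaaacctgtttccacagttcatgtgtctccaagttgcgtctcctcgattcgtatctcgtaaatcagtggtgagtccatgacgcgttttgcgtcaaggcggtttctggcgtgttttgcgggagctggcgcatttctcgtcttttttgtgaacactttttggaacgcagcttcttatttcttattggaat
nhr-230 (chrV:18847452-18847652): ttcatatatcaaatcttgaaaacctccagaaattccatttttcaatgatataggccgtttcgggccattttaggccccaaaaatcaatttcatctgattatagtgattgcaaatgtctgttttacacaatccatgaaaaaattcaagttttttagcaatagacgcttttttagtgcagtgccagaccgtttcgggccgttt
nhr-48 (chrX:15707286-15707486): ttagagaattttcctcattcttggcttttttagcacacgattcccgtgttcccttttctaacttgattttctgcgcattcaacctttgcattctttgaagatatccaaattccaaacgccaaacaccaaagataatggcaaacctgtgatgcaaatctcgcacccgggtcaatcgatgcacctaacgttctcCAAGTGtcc
GTTCGA, the B-box core named above, is also present at nhr-102, on the minus strand directly beside the snoRNA gene, and the longer pattern GTTCGANNC is not. None of these 5 holds CAGGTG, the E-box that Snail-type zinc fingers recognise, nor do the 3 sites at tRNA genes. The sequence at nhr-95 is cut at 116 bases, before untranslated exon sequence, and its summit lies in a coding exon of the gene. In windows of the same size, CACTTG was present on either strand at 6 of 89 best regions of nhr- genes (6.74%) and at 8.36% of those of all genes.

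A minority of nhr- promoters held any candidate region, and few held a strong one. Of 269 nhr- genes, 90 had a candidate summit in the window (33.5%, exact 95% interval 27.8 to 39.4%), against 7662 of 19973 protein-coding genes (38.4%). The other 179 had none in the pooled list. An IDR summit was present at 4 nhr- genes (1.49%, 0.407 to 3.76%), against 310 of all genes (1.55%). With summits within 100 bp of a tRNA gene left out, 2 nhr- genes remained (0.743%, 0.0902 to 2.66%), against 273 of all genes (1.37%). A −log10 q-value of at least 1.3, which is a q-value of 0.05, was reached by the best region of 5 nhr- genes (1.86%, 0.606 to 4.28%) and of 469 genes in all (2.35%). Each of these intervals contains the share over all genes. The intervals treat genes as independent, although neighbours can share a region, and they include no biological variation.

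Among the 90 scored nhr- genes the scores ran from 33.1 to 276.9, with a median of 46.8 and an interquartile range of 38.7 to 56.3. The 7662 scored protein-coding genes ran from 32.9 to 667.6, with a median of 49.2 and an interquartile range of 40.3 to 63.1. The lowest possible score is 32.9, the signal of the weakest region in the pooled list. A single candidate summit was found in the window of 62 nhr- genes, 22 had 2 and 6 had 3 or more. The highest number was 7, at nhr-41, counted over the windows of its 5 transcript starts. These counts have no value over all genes beside them here.

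**Figure D1:**
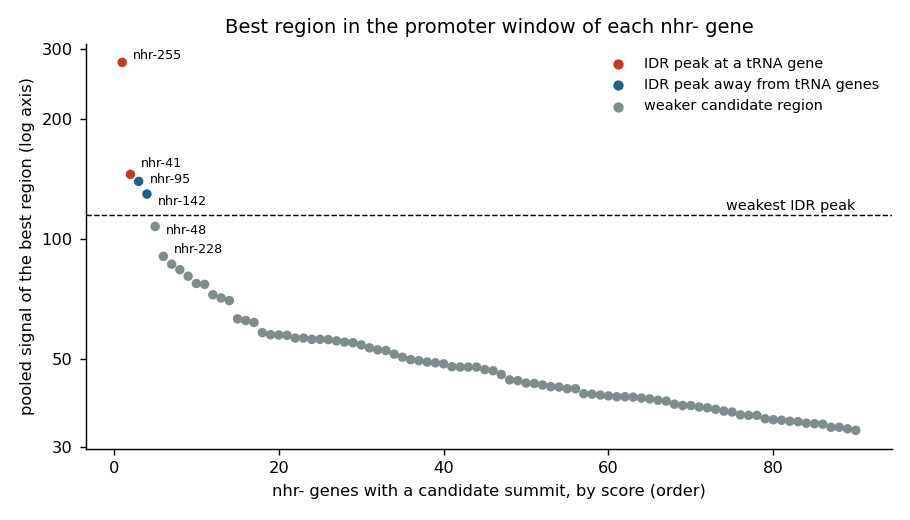
Pooled signal (log axis) of the best region of each of the 90 scored nhr- genes, in order of score. The dashed line is the weakest IDR peak (114.7). The 4 nhr- genes above it run from 129.5 to 276.9, and red points are those whose summit lies at a tRNA gene.

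The strongest promoter region of the family belonged to nhr-255 (WBGene00014068, X, 15742610 to 15744298). The region had a pooled signal of 276.9, rank 68 of the pooled list and a −log10 q of 2.47. Its signal was 145.1 in replicate 1 and 126.2 in replicate 2, at ranks 70 and 75. The rank was therefore nearly the same in both replicates. The summit, at 15742069, lay 541 bp upstream of the nhr-255 start and inside the tRNA-Leu gene (15742050 to 15742133). In a window of 500 bp upstream to 100 bp downstream that summit drops out, and the best region of nhr-255 had a signal of 72.9.

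The next was nhr-41 (WBGene00022423, IV, 1386215 to 1399353), the counterpart of the fly receptor DHR78 and the vertebrate testicular receptors. It had a pooled signal of 145.1 and rank 286, with signals of 76.8 in replicate 1 and 63.0 in replicate 2 at ranks 335 and 395. Its summit at 1388198 lay in an intron, within 200 bp downstream of one of its 5 transcript starts and 18 bp from the tRNA-Glu gene (1388216 to 1388287). The gene's first start lies 1983 bp upstream of that summit. With the first start alone, the best region of nhr-41 had a signal of 44.1. Whether these regions mark the tRNA genes or the receptor genes cannot be told apart from summit positions.

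The 2 nhr- genes with an IDR summit away from tRNA genes were nhr-95 and nhr-142, both on chromosome V. nhr-95 (WBGene00003685, 19076604 to 19082641) had a pooled signal of 139.3 and rank 311. Its signal was 62.2 in replicate 1 and 72.6 in replicate 2, at ranks 630 and 269. The summit, at 19082553, lay 85 bp downstream of the nearest nhr-95 start, in a coding exon of the gene. nhr-142 (WBGene00018430, 5785957 to 5790553) had a pooled signal of 129.5 and rank 359, with 51.4 in replicate 1 and 74.2 in replicate 2. Its ranks were further apart, at 1309 in replicate 1 and 253 in replicate 2. The nhr-142 summit, at 5791064, lay 511 bp upstream of its own start but 166 bp upstream of the start of the neighbouring gene F44E7.9. When each summit was given only to the nearest protein-coding start, the best region of nhr-142 had a signal of 65.9, and the window of 500 bp upstream to 100 bp downstream gave the same value. No tRNA, snoRNA or small nuclear RNA (snRNA) gene lay within 100 bp of the summits at nhr-95 and nhr-142.

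Just below the IDR list stood nhr-48 (WBGene00003638, X), a relative of daf-12 and nhr-8 in the group of the vertebrate vitamin D and pregnane X receptors. Its region had a pooled signal of 107.4, rank 611 and a −log10 q of 1.43. The signal was 59.3 in replicate 1 and 48.4 in replicate 2, at ranks 751 and 1034, and the summit lay 827 bp upstream of a start. The weakest score inside the IDR list among nhr- genes was 129.5, at nhr-142. nhr-228 followed at 90.4, with a −log10 q of 0.99 and ranks of 4784 in replicate 1 and 854 in replicate 2.

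Looking at whole genes and their flanks added 3 receptors. An IDR summit lay in the gene or within 1000 bp of it at 7 nhr- genes (2.6%, 1.05 to 5.29%), against 613 of all protein-coding genes (3.07%). This wider count was made after the data were seen. The strongest region at any nhr- gene was beside nhr-102 (WBGene00003692, V, 15874093 to 15876408), with a signal of 582.2, rank 6 of the pooled list and ranks 6 and 7 in replicates 1 and 2. Its summit lay just past the 3′ end of nhr-102 and 52 bp from the snoRNA gene T06C12.16 (15873855 to 15873926). In nhr-17 (WBGene00003616, X) the summit lay in an intron, inside the tRNA-Tyr gene (12665228 to 12665311). That region had a signal of 280.7, rank 65, and ranks 67 and 60 in replicates 1 and 2. In nhr-230 (WBGene00012446, V) the summit lay in an intron, 772 bp from the gene's 5′ end and at no small RNA gene. It was the weakest peak of the IDR list, with a signal of 114.7 and rank 495, and it ranked 1179 in replicate 1 and 482 in replicate 2. The 3 strongest regions in or beside nhr- genes thus lay at a snoRNA or tRNA gene, and each had similar ranks in both replicates.

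In the promoter windows themselves, few best summits lay at small RNA genes, both for nhr- genes and for all genes. The best summit lay within 100 bp of a tRNA gene at 2 of 90 scored nhr- genes (2.22%) and at 75 of 7662 scored genes in all (0.979%). Adding snoRNA and snRNA genes left the count at 2 for nhr- genes and gave 122 for all genes.

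The nhr- genes chosen for 4 role lists had a candidate summit in a larger share than the family as a whole. Among them, 1 had an IDR summit. Studied receptors with another symbol are in a separate list, of which 1 of 5 was scored (20%). Of 32 receptors in 4 role lists, which overlap, 20 had a candidate summit (62.5%, 43.7 to 78.9%), against 33.5% of all nhr- genes and 38.4% of all protein-coding genes. The IDR summit was that of nhr-41, at a tRNA gene, which is 1 of 32, against 1.55% of all protein-coding genes. A −log10 q of at least 1.3 was reached at 2 of the 32, against 2.35% of all protein-coding genes. The other scored receptors rest on weaker regions, and the lists were chosen with earlier results of these data known. These receptors have a mean of 2.47 annotated transcript starts, which lengthens the window, against 1.7 over all nhr- genes and 1.49 over all protein-coding genes, and 25% of them lie on chromosome V, against 62.1% of all nhr- genes. The part of starts and chromosome in the larger share was not tested. Their median score was 53.0, against 46.8 over all scored nhr- genes and 49.2 over all scored protein-coding genes. The list of receptors with a named counterpart in flies or vertebrates held 14 nhr- genes. Of these, 9 were scored (64.3%), against 33.5% of all nhr- genes and 38.4% of all protein-coding genes, with a median score of 62.4. After nhr-41 and nhr-48 came nhr-49 at 83.7, with replicate ranks of 3883 and 2420, and nhr-69 at 70.0, with ranks of 12274 and 7772. Both are relatives of HNF4. Those with no candidate summit were nhr-8, nhr-23, nhr-67, nhr-91 and nhr-111.

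Among 12 receptors of lipid and nutrient metabolism, 7 were scored (58.3%, against 38.4% of all protein-coding genes) and the median was 48.9. None had an IDR summit, where 1.55% of all protein-coding genes had one. nhr-49, a central regulator of fatty acid desaturation and breakdown, led them, with its summit 287 bp upstream of a start. nhr-114, which acts in the response to diet, had 77.3 and ranks of 7111 and 10998 at its site. The strongest region of replicate 2 with its summit in the nhr-114 window ranked 1562. nhr-66 and nhr-13, which work with nhr-49, had 56.0 and 48.9. nhr-66 had no region over its site in replicate 1 and rank 1541 in replicate 2. No candidate summit was found at nhr-8, nhr-10, nhr-62, nhr-68 or nhr-76.

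The 8 receptors of development and moulting gave 4 scored genes (50%, against 38.4% of all protein-coding genes) with a median of 59.2, and no IDR summit. nhr-40, which acts in muscle development and embryonic elongation, had the highest score of these at 86.4. nhr-85, a relative of the fly moulting receptor E75, had 62.4. nhr-6, the counterpart of the vertebrate NR4A receptors, had 56.0, and nhr-25, the counterpart of fly FTZ-F1, had 55.5. nhr-2, nhr-23, nhr-60 and nhr-67 had none, among them nhr-23, a main regulator of moulting. The 7 receptors of stress, immunity and xenobiotic responses had the lowest median of the 4 lists, 39.4, over 5 scored genes (71.4%, against 38.4% of all protein-coding genes), and no IDR summit. nhr-45, which acts in detoxification when mitochondria are disrupted, had 50.5. nhr-31, needed in the excretory cell, had 39.9, and nhr-86, a sensor of a pathogen metabolite, had 39.4. nhr-57, a target of the hypoxia response, had 37.9. With lists of 7 to 14 genes, an IDR share near the 1.55% of all genes leaves most lists with none. The lists were not tested against each other.

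Genes that work with the receptors were read from 4 further lists, of which 9 of 22 genes were scored (40.9%, 20.7 to 63.6%), near the 38.4% of all protein-coding genes, with a median of 46.7. They are not members and were scored in the same way. The strongest were the 2 scored coregulators. cbp-1, the homologue of the histone acetyltransferases CBP and p300, had an IDR summit 888 bp upstream of a start, with a signal of 131.1, rank 354 and ranks of 555 and 194 in replicates 1 and 2. din-1, which encodes a corepressor of the receptor DAF-12, had 102.5, rank 717, with its summit within 100 bp of a small RNA gene. mdt-15, a mediator subunit that works with nhr-49, and gei-8 had no candidate summit. Of 5 receptors with other symbols, daf-12 had 45 and sex-1, fax-1, unc-55 and odr-7 had none. Of 5 genes that make or modify the sterol ligands, strm-1 had 50.7, dhs-16 had 47.3 and hsd-1 had 36, while daf-9 and daf-36 had none. Of 8 known receptor targets, acs-2 had 46.7, noah-1 had 42.6 and noah-2 had 36.3. The desaturase genes fat-5, fat-6 and fat-7, targets of nhr-49 and nhr-80, had none, nor did acdh-1 and mlt-10.

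**Figure D2:**
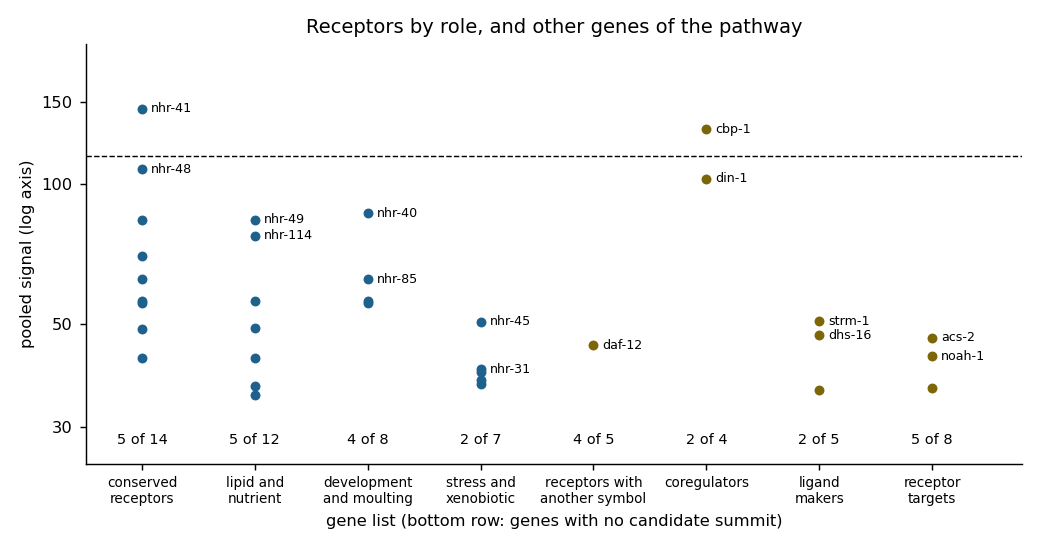
Pooled signal (log axis) of the best region of each scored gene in 4 role lists of nhr- genes (blue) and 4 lists of other pathway genes (brown). The dashed line is the weakest IDR peak (114.7), and the bottom row gives the genes of each list with no candidate summit. nhr-41 and cbp-1 are the points above the line.

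The replicates ranked nhr-255 and nhr-41 alike and many weaker nhr- sites far apart. In the lists of the single replicates, 97 nhr- genes had a candidate summit in replicate 1 (36.1%) and 91 in replicate 2 (33.8%), against 38.5% and 39% of all protein-coding genes. Among the 495 strongest regions of replicate 1, summits lay in the windows of 2 nhr- genes, nhr-255 and nhr-41, against 1.51% of all genes. Among those of replicate 2, they lay in the windows of 4, with nhr-95 and nhr-142 added, against 1.52% of all genes. The ranks at nhr-255, nhr-41 and nhr-95 were within 990, 2 times 495, in both replicates. No share over all genes is given for this cut.

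Of the 90 best sites, 42 were covered by a region in both replicate lists (46.7%), against 48.4% over all scored genes. Another 20 were covered in replicate 1 alone, 27 in replicate 2 alone and 1 in neither. Over the 42 the ranks had a Spearman rho of 0.61, and 0.48 without the 4 genes at IDR peaks (n = 38). Over all 3708 scored genes with both ranks it was 0.39. These points share the same pair of libraries, and each list ends at 30000 regions, so the correlations are descriptions. The ranks differed most, among the 24 of the 30 highest nhr- genes that had both, at nhr-40, nhr-96 and nhr-21. nhr-40 ranked 565 in replicate 1 and 11346 in replicate 2, a 20.1-fold difference, with signals of 64.2 and 26.5. nhr-96 ranked 1504 and 13866, 9.22-fold apart, and nhr-21 ranked 14637 and 1866, 7.84-fold apart. The direction was thus not the same in all 3. In replicate 2 the strongest region with its summit in the nhr-96 window ranked 7552. At nhr-40 and nhr-21 the strongest region in the window had the same ranks as the site. nhr-47 (pooled score 80.6) had no region over its site in replicate 1 and rank 583 in replicate 2. The strongest region of replicate 1 with its summit in the nhr-47 window ranked 3484. nhr-132 (76.9) had rank 597 in replicate 1 and no region over its site in replicate 2. There the strongest region with its summit in the nhr-132 window ranked 4146. nhr-202 (71.1) had ranks of 2506 in replicate 1 and 14804 in replicate 2.

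**Figure D3:**
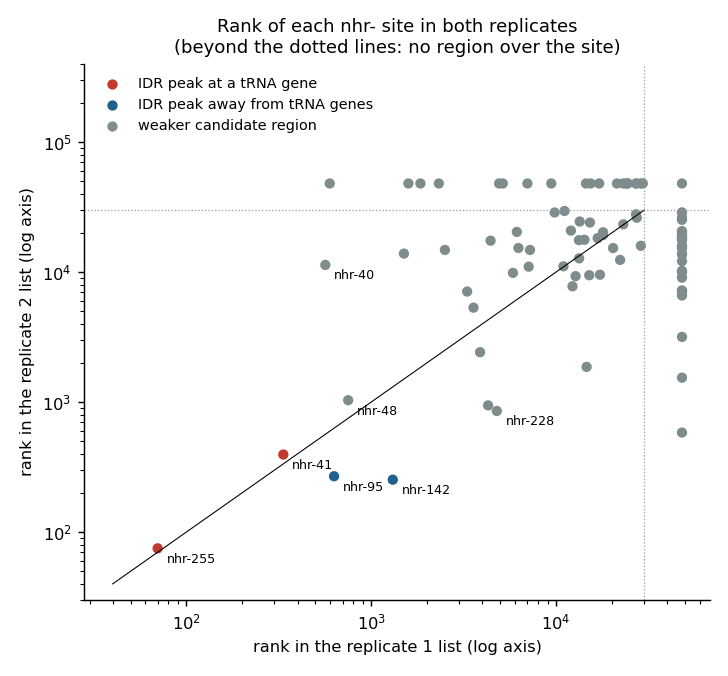
Rank of the region over each scored nhr- site in the replicate 1 list (x) and the replicate 2 list (y), both on log axes, with the line of equal rank. Points beyond the dotted lines had no region over the site in that replicate. nhr-255 and nhr-41 lie near the line, at ranks 70 and 75 and at 335 and 395.

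The site at nhr-40, in an intron of the gene and 408 bp upstream of its nearest transcript start, is shown because its ranks differed most. None of the 4 motifs counted here matched, so it has no capitals.
nhr-40 (chrX:2598900-2599100): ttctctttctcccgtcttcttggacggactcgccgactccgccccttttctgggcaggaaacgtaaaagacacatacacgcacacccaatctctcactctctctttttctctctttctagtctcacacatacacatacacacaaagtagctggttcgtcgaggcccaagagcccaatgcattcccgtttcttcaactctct
The GC content of this window is 49.3%, against a mean of 36.6% (SD 10.1) in the shorter windows of all scored nhr- genes. In the windows of the same size printed above it ran from 35.8% at nhr-230 to 53.2% at nhr-255 and nhr-102.

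The best summits of nhr- genes were spread over the whole window, with shares in each stretch within 5 percentage points of those of all genes. The median signed position was 390.5 bp upstream for the 90 nhr- genes and 311.5 bp upstream for the 7662 scored genes. Summits more than 500 bp upstream made up 38.9% for nhr- genes and 34.2% for all genes. Those over 200 and up to 500 bp upstream made up 26.7% for nhr- genes and 26.9% for all genes, and those 1 to 200 bp upstream made up 16.7% for nhr- genes and 21.6% for all genes. At or downstream of the start lay 17.8% for nhr- genes and 17.3% for all genes. By annotation, 51 of the 90 lay between protein-coding genes (56.7%, against 54.2% of all genes). An intron of the gene itself held 16 (17.8%, against 12.9%), its coding exons 8 (8.89%, against 9.93%) and its UTR exons 6 (6.67%, against 5.16%). In another gene, coding exons held 7 (7.78%, against 6.51%), introns 1 (1.11%, against 6.83%) and UTR exons 1 (1.11%, against 4.49%). The median span was 2309 bp for nhr- genes and 2027 bp for all genes. Whether the positions differ was not tested.

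**Figure D4:**
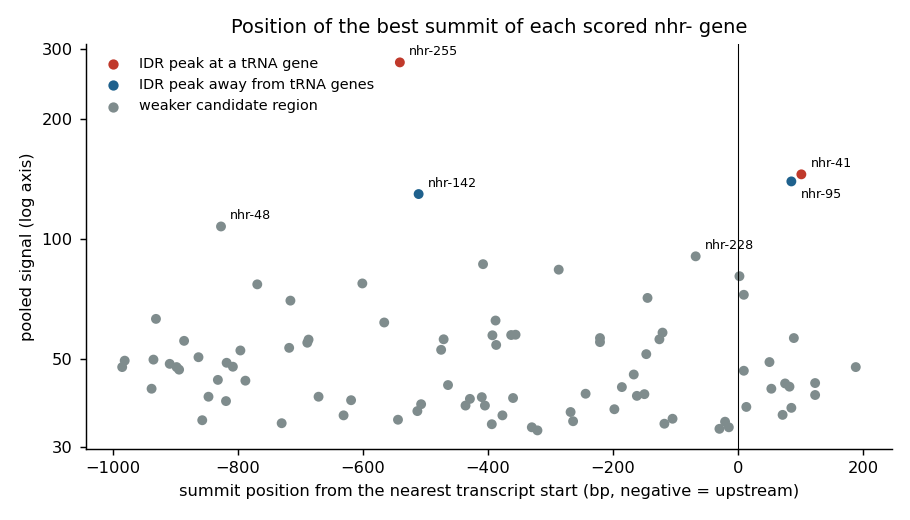
Position of the best summit from the nearest transcript start (x, bp, negative is upstream) and pooled signal (y, log axis) of the 90 scored nhr- genes. nhr-41 and nhr-95 lie within 200 bp downstream of a start, and nhr-255 and nhr-142 lie 541 and 511 bp upstream.

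Most nhr- genes lie on chromosome V, where fewer genes of any kind had a candidate summit. Chromosome V carries 167 of the 269 nhr- genes (62.1%) and 25% of all protein-coding genes. A candidate summit was found at 52 of those 167 (31.1%, 24.2 to 38.8%), against 28.6% of all genes on V. The share over all genes was lower on V than the 38.4% over the genome. If the nhr- genes of each chromosome had its genes' share, 88.9 of them (33.1%) would have had a candidate summit, and 90 had one. On V the scored nhr- genes had a median score of 43.5, against 47.7 for all scored genes of V. The other chromosomes carry 8 to 33 nhr- genes each. The share was lower for nhr- genes on chromosome I, at 6 of 23 (26.1%, 10.2 to 48.4%), against 49.1% of all genes there. It was higher for nhr- genes on II, at 8 of 15 (53.3%, 26.6 to 78.7%) against 38.8%, and on III, at 5 of 8 (62.5%, 24.5 to 91.5%) against 50.4%. On IV it was 36.4% for nhr- genes and 36.5% for all genes, and on X it was 30.4% for nhr- genes and 35% for all genes. The interval for nhr- genes leaves out the share over all genes on chromosome I and contains it on II, III, IV, V and X.

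Along chromosome V the shares were uneven. In the left of 3 parts of equal length, 35 of 78 nhr- genes had a candidate summit (44.9%, 33.6 to 56.6%), against 33.7% of all genes. In the middle part 4 of 41 had one (9.76%, 2.72 to 23.1%), against 21.6%, and in the right part 13 of 48 (27.1%, 15.3 to 41.8%), against 31.3%. All genes were thus also least often scored in the middle part. Many nhr- genes stand in tandem: 137 had another member as the next protein-coding gene, and 38 of these were scored (27.7%, 20.4 to 36%). Of the 132 with no such neighbour, 52 were scored (39.4%, 31 to 48.3%). Of the genes with such a neighbour 78.1% lie on V, where 28.6% of all genes were scored, and of those without 45.5% lie there. Over the genome 38.4% of all genes were scored. The part of the chromosome in this difference was not tested. The 90 scored nhr- genes rested on 89 distinct regions, since nhr-130 and nhr-212 share one, and the 7662 scored genes in all rested on 6733. The best summits of 8 scored nhr- genes lay in the window of another protein-coding gene as well. No count over all genes is given for the 8.

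**Figure D5:**
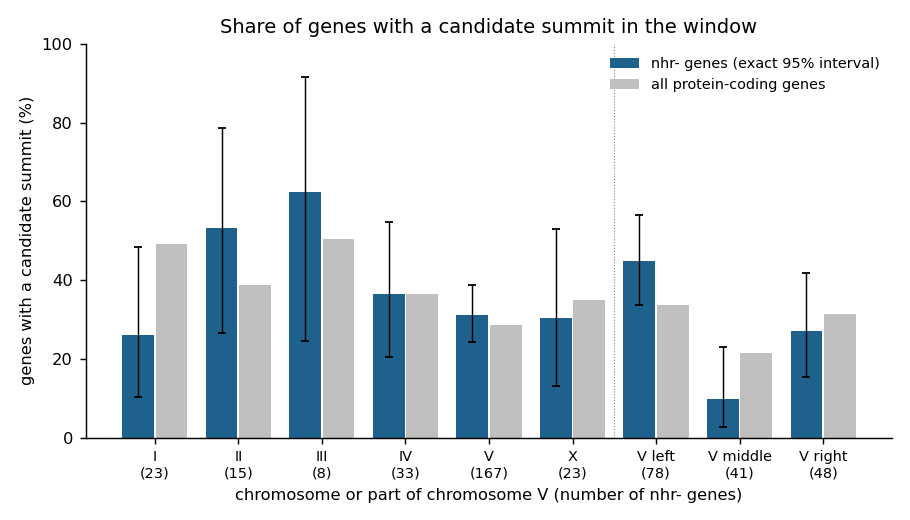
Percentage of nhr- genes (blue, with the exact 95% interval) and of all protein-coding genes (grey) with a candidate summit, for each chromosome and each of 3 equal parts of chromosome V. The number of nhr- genes stands in brackets. In the middle part of V the share is 9.76% for nhr- genes and 21.6% for all genes.

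The sequence under the best summits was read in windows of 50 bp to each side of the summit, at the 89 distinct regions of nhr- genes and the 6733 of all scored genes. CAGGTG, counted on both strands, was present at 7 of 89 (7.87%, 3.22 to 15.5%) and at 195 of 6733 (2.9%). Where the summit lay in a coding exon it was present at 1 of 15 regions of nhr- genes and 3.45% of all, and elsewhere at 6 of 74 (8.11%) and 2.79%. CACTTG was present at 4 (4.49%) and at 4.44% of all. CGCGCC was present at 1 (1.12%) and at 3.28% of all. GTTCGA was present at 4 (4.49%) and at 3.68% of all. Away from tRNA, snoRNA and snRNA genes GTTCGA was present at 2 of 87 regions of nhr- genes (2.3%) and at 3.18% of all. The mean GC content was 36.6% (SD 10.1) at nhr- genes and 38.8% (SD 9.8) at all genes. Whether the share of CAGGTG differs was not tested, and a match does not show binding.

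Of the 7 best regions of nhr- genes with CAGGTG, 6 are printed here because they hold the Snail-type E-box near the summit, and the one at nhr-64 is not printed. Each is given with the match in capitals on the plus strand (CACCTG is the same motif on the minus strand).
nhr-96 (chrV:2233505-2233530): tgtctgtggcCAGGTGaccactggga
nhr-204 (chrV:259770-259795): tcctagacgtCACCTGcgtgcttttg
nhr-6 (chrIII:3573123-3573148): agtaaccactCACCTGtacattggga
nhr-158 (chrV:3873440-3873465): gcctaaacaaCACCTGaatacttttg
nhr-45 (chrX:4661167-4661192): cgaaagaaagCACCTGtttgaaagac
nhr-50 (chrV:16000607-16000632): tgaagaggagCAGGTGgttagagact
None of the 7 genes is one of the 4 with an IDR summit. Their scores ran from 72.4 at nhr-96, where the match lies in a coding exon, through 63.0 at nhr-204, 56.0 at nhr-6, 55.1 at nhr-158, 50.5 at nhr-45 and 42.1 at nhr-64 to 33.7 at nhr-50. The matches at nhr-64 and nhr-50 lie in untranslated exon sequence. The pooled ranks ran from 2795 at nhr-96 to 28712 at nhr-50. The −log10 q-values ran from 0.44 at nhr-96 down to 0.04 at nhr-50, so none of the 7 regions reached a q-value of 0.05. No region lay over the site in replicate 2 at nhr-45 and nhr-50, or in replicate 1 at nhr-64. At nhr-96, nhr-204, nhr-6 and nhr-158 both replicates had one. In the sequence at nhr-45 the match begins 4 bp left of the summit, the closest of the 7, and the furthest begin 29 bp away, at nhr-96 and nhr-50.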

How the data were processed

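The authors deposited narrowPeak lists on ce11 for each replicate and for both replicates pooled, and a list of IDR peaks. Per the deposited manifests, each was made from the replicates' alignments and a control alignment. Which aligner and peak caller were run, and at which IDR threshold, is not given in the sources used here. Each region's signal is the value the authors deposited, on an unstated scale. The −log10 q-value of each region was also used as deposited. Region starts and summit offsets, counted from 0 in the deposited format, were turned into positions counted from 1. The control library and the lists on ce10 were not used here.

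Positions were set against Ensembl release 115 of WBcel235, which has ce11 coordinates, and no ce11 region ran past a chromosome end. The 612 annotated tRNA genes came from that annotation, and their isotypes and the sequences from RefSeq for the same assembly. The window, the 100 bp distance to tRNA genes and the rank over the nearest summit of each replicate were computed with Python 3.11.15, numpy 2.4.6, pandas 2.3.3, scipy 1.17.1 and matplotlib 3.10.9. The assignment was tested on simulated data. Shares carry exact Clopper-Pearson 95% intervals, which cover counting error only. With 1 group there was no test between conditions.

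The members, the role lists and the motifs were chosen with earlier results of these data known. Named genes are nhr-255, nhr-41, nhr-95 and nhr-142, members with an IDR summit, the 15 highest scores, the 3 of the 30 highest with the most unequal replicate ranks, and up to 4 per role list. Genes named for sharing a region, holding CAGGTG or having an IDR summit outside the window were named after their values were seen. Alternatives were other windows, starts and overlap rules, other numbers of strongest regions, each replicate alone and other distances to tRNA genes. The whole gene with flanks, and the IDR count without tRNA genes, were added after the data were seen. A comparison of the members' protein sequences was planned and not made, since no protein table was used here. Replicate numbers are from the labels, which call the replicates biological.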

Additional observations from a re-analysis of the deposited data

How the results depend on the processing

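With a window of 500 bp upstream to 100 bp downstream, 59 nhr- genes had a candidate summit (21.9%), against 25.2% of all protein-coding genes, and 2 had an IDR summit (0.743%), against 1.09%. The best regions of nhr-255 and nhr-142 then had signals of 72.9 and 65.9. Under the other windows, starts and overlap rules 77 to 128 nhr- genes had a candidate summit (28.6 to 47.6%), against 34.3 to 53.7% of all genes. An IDR summit was then present at 3 or 4 nhr- genes (1.12 to 1.49%), against 1.13 to 2.16% of all genes. The count of nhr- genes with one of the N strongest regions (N = 495) was 1 for the 247 strongest (0.372%, against 0.856% of all genes) and 5 for 2N (1.86%, against 2.84%). It was 2 without replicate 2 (0.743%, against 1.51%) and 4 without replicate 1 (1.49%, against 1.52%). It was 7 for whole genes with 1000 bp to each side (2.6%, against 3.07%), and 2 without summits at tRNA genes (0.743%, against 1.37%). The median score ran from 42.6 to 49 for nhr- genes and from 48.5 to 50.4 for all genes. Of the 25 scored named genes, 7 lost their region under the narrow window and 4 took another best region. No paired analysis was possible because the samples form 1 group and no test was made. Depth is unknown, so a missing region is not evidence that a site is unoccupied.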
